A study of Mus musculus with 12 samples.

Results

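The transcripts of the pyruvate dehydrogenase complex and of its nearest partners were followed in mouse eggs after knockdown of the mRNA decapping factors Dcp1a and Dcp2. The gene set was fixed by name and held 10 genes: the catalytic subunits Pdha1, Pdhb, Dlat and Dld, the structural subunit Pdhx, the regulators Pdk2, Pdk3 and Pdp1, and the mitochondrial pyruvate carrier genes Mpc1 and Mpc2. All probe sets whose only gene symbol in the platform annotation was one of these names were taken, which gave 15 probe sets for 9 of the 10 genes among 45037 probe sets on the array. Mpc2 had no such probe set in the annotation used here and was not analysed. Of the 15 probe sets, 9 from 8 genes were bright enough to be tested, meaning an intensity above 32 units on at least 3 of the 12 arrays, as were 11593 probe sets in all.

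Full-grown CF1 mouse oocytes had been injected with a mixture of Dcp1a and Dcp2 siRNA (the double knockdown), with Dcp1a siRNA, with Dcp2 siRNA or with a control siRNA. All groups were held in milrinone, which keeps oocytes in meiotic arrest, for 20 h and then matured without it for 18 h to metaphase of the second meiotic division. Each group had 3 independent biological replicates of 30 pooled eggs, and each replicate was hybridised to 1 Affymetrix array. The siRNAs were commercial pools of several duplexes per gene, so an effect cannot be assigned to 1 duplex. Egg age and donor age are not given in the sources used here.

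The pyruvate dehydrogenase complex sits in the mitochondrial matrix and turns pyruvate into acetyl-CoA, which enters the citric acid cycle. Pyruvate dehydrogenase kinases phosphorylate the complex and switch it off, and pyruvate dehydrogenase phosphatases switch it on again. Mouse oocytes and eggs use glucose poorly and take most of their energy from pyruvate, supplied in the ovary by the surrounding cumulus cells and in culture by the medium. Full-grown oocytes are transcriptionally silent, so an egg's transcript level reflects what was stored and what has since been degraded.

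Intensities were the authors' GCRMA values on a linear scale with a floor of 4.9 units, and they are relative within an array: less of a transcript and more of all others cannot be told apart. In a pool, fewer eggs holding a transcript and less of it per egg cannot be told apart either. Knockdown was seen at both targets. Dcp1a averaged 791 ± 387 units in the double knockdown and 1011 ± 365 in the Dcp1a knockdown, against 8031 ± 1990 with Dcp2 siRNA and 8632 ± 3553 in control eggs (SD, n = 3 each). Dcp2 lay between 4.9 and 5 units on all 6 arrays injected with its siRNA, against 30.4 to 81.8 in control eggs. All 10 oocyte markers were above 32 units on all 12 arrays. In the double knockdown their median log2 change from control was 0.71, and the zona pellucida genes Zp2 (2.08 ± 0.42, adjusted p = 0.012 with limma) and Zp3 (2.14 ± 0.47, adjusted p = 0.019) rose; the part of this shift in the members' relative levels was not tested. Of 11 cumulus and granulosa cell markers, 0 were above 32 units on any array. The summed level of those 11 was 59 to 60 units in the double knockdown, 60 to 63 with Dcp1a siRNA, 59.5 to 62.2 with Dcp2 siRNA and 59.2 to 60.6 with control siRNA, near the floor in each group. Of 8 markers of other ovarian and blood cells, Kdr alone was above 32 units. The control arrays were a loose group, with r of 0.94 to 0.97 across the tested probe sets, and each correlated best with an array of another group. The gap between the best r and that within the own group was widest for control replicate 1 and Dcp2 replicate 2. Across the tested probe sets, Dcp2 replicate 2 correlated with Dcp1a replicate 2 at r = 0.99, against 0.94 to 0.96 within its own group, and control replicate 1 with Dcp1a replicate 1 at r = 0.99, against 0.94 to 0.95 within its own. Whether RNA or labels were exchanged was not tested. Both targets were at the level that the labels give: Dcp2 replicate 2 had 4.9 units of Dcp2 and 10248 of Dcp1a, and control replicate 1 had 32.2 units of Dcp2 and 12427 of Dcp1a. The changes from control of each member's brightest probe set in the double and Dcp2 knockdowns, and the other genes' calls against control, are also given without the 2 arrays.

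Each comparison was tested with limma on log2 intensities over all 11593 probe sets, and a probe set was called at a Benjamini-Hochberg adjusted p under 0.05. No member probe set was called in any of the 6 comparisons made. In the double knockdown against control 0 of 9 were called, where 8.72% of all tested probe sets were, 6.62% higher and 2.1% lower. The other counts of 0 of 9 stood beside 0.0518% of all probe sets called in the Dcp1a knockdown against control, 0.0173% in the Dcp2 knockdown against control, 12.1% in the double against the Dcp1a knockdown, 6.37% in the double against the Dcp2 knockdown, and 3.93% for the interaction. The interaction is the double change minus the sum of both single changes. At an unadjusted p under 0.05, 1 member probe set was higher in the double knockdown (Pdk3, 15.8% of all probe sets) and 2 were lower (Pdhx and Pdp1, 12% of all). By the same measure 1 was lower in the Dcp2 knockdown (Dld, 8% of all) and 0 differed in the Dcp1a knockdown (4.92% of all). In data simulated for the double knockdown against control, 31 of 100 changes of 2-fold and 82 of 100 changes of 4-fold were called. The simulated noise was independent between probe sets and arrays, with no floor and no differences shared across an array. These shares therefore need not hold for the real arrays.

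The members' own spread was widest for Dld and Pdhx, and Pdk3 followed another order over the arrays than the rest. For these 3 genes the promoters are shown, from 250 bases before to 50 bases after the annotated start, as RefSeq gives them on GRCm38.p6, all on the minus strand and written 5′ to 3′. They lie at chr2:103073464-103073763 for Pdhx, chr12:31351422-31351721 for Dld and chrX:93832101-93832400 for Pdk3. Capitals mark matches on either strand to 3 motifs: the GC box GGGCGG, the CCAAT box CCAAT and TATAAA.
Pdhx: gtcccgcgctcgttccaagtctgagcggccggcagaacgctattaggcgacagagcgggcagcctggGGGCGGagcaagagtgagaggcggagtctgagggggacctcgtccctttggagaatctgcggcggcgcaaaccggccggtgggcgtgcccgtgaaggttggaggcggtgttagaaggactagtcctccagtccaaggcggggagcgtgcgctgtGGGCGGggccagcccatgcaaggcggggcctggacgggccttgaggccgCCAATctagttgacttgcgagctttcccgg
Dld: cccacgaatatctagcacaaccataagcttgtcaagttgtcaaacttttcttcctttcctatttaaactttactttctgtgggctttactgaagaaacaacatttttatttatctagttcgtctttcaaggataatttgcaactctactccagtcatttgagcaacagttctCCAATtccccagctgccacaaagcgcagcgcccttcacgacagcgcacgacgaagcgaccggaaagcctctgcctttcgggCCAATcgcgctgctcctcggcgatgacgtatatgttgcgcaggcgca
Pdk3: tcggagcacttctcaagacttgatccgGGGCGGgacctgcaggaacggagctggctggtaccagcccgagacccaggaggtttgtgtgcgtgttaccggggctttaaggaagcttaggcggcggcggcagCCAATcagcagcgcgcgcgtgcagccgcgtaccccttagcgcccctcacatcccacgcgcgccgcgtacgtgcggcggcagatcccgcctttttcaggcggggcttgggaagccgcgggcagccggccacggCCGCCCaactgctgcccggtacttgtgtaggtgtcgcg
Pdhx and Pdk3 each held 2 GC boxes and 1 CCAAT box, whereas Dld held 2 CCAAT boxes and no GC box, and TATAAA was in none of the 3. Among all 32851 promoters in the table, 35.7% held a GC box, 37.4% a CCAAT box and 13.6% TATAAA. A match describes these letters only and is no evidence of binding.

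Pdha1 and Pdhb encode the subunits of the first enzyme of the complex, which decarboxylates pyruvate. Pdha1, which carries the phosphorylation sites that the kinases act on, read 40.4, 36 and 112 units in the double knockdown, 74.5, 81.8 and 128 in the Dcp1a knockdown, 40.9, 58.6 and 27.7 in the Dcp2 knockdown and 56.9, 52.4 and 123 in control eggs. Each knockdown group overlapped control. Double knockdown replicate 3 stood near the highest control array while replicates 1 and 2 lay below all control arrays. Pdhb read 511, 401 and 647 units in the double knockdown, 707, 697 and 816 in the Dcp1a knockdown, 548, 792 and 363 in the Dcp2 knockdown and 676, 539 and 795 in control eggs. The double knockdown arrays all lay below the Dcp1a knockdown arrays, as for 27.1% of all tested probe sets in this direction, but not below the control arrays. On the log2 scale the double knockdown differed from control by -0.39 ± 0.48 for Pdha1 and by -0.38 ± 0.29 for Pdhb (± SE, adjusted p = 0.60 and 0.39 with limma, n = 3 each). Without Dcp2 replicate 2 and control replicate 1 the changes were -0.55 for Pdha1 and -0.36 for Pdhb in the double knockdown and -1.25 and -0.55 in the Dcp2 knockdown (adjusted p 0.14 to 0.46). The 95% interval for Pdhb, -1.01 to 0.25, included 0. Second probe sets of Pdha1 (at most 16 units) and Pdhb (at most 7.9 units) were too dim to test.

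Dlat encodes the acetyltransferase that forms the core of the complex and passes the acetyl group to coenzyme A, and its probe sets had the narrowest range over the 12 arrays among the members. The brighter read 175, 174 and 255 units in the double knockdown, 205, 251 and 244 in the Dcp1a knockdown, 173, 226 and 152 in the Dcp2 knockdown and 251, 234 and 244 in control eggs. All 3 Dcp2 knockdown arrays lay below all control arrays, a separation that 5.21% of all tested probe sets showed in this direction. The log2 change was -0.29 ± 0.21 in the double knockdown (adjusted p = 0.36 with limma) and -0.42 ± 0.21 in the Dcp2 knockdown (adjusted p = 0.42), or -0.27 and -0.56 without Dcp2 replicate 2 and control replicate 1 (adjusted p = 0.35 and 0.10). The other tested probe set of Dlat, whose suffix marks probes that can match further transcripts, read 192, 146 and 260 units in the double knockdown and 192, 200 and 200 in control eggs. The double knockdown arrays of this probe set overlapped control, and its log2 change there was -0.03 ± 0.22. All 3 of its Dcp1a knockdown arrays (202 to 230 units) lay above all control arrays, with a log2 change of 0.15 ± 0.22 (adjusted p = 0.91 with limma). The share of all tested probe sets separated in this way is not given here. The remaining Dlat probe set stayed at or under 23 units and was not tested.

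Dld encodes the dihydrolipoamide dehydrogenase that reoxidises the lipoyl arm, a subunit shared with the related 2-oxoacid dehydrogenases. It was dim and spread widely, reading 31.7, 10.3 and 117 units in the double knockdown, 77.6, 136 and 115 in the Dcp1a knockdown, 11.2, 45 and 9.9 in the Dcp2 knockdown and 77.1, 54.7 and 103 in control eggs. All 3 Dcp2 knockdown arrays lay below all control arrays, as for 5.21% of all tested probe sets in this direction. The double knockdown arrays spanned from far below the controls to above them. The fitted log2 change in the double knockdown was -1.17 ± 0.79 (95% interval -2.90 to 0.56, adjusted p = 0.33 with limma), and leaving out single arrays moved it between -2.07 (without double knockdown replicate 3) and -0.31 (without replicate 2). In the Dcp2 knockdown Dld was 2.11-fold lower than in control eggs with values under 32 units counted as 32 (adjusted p = 0.42 for the fitted log2 change of -2.15 ± 0.79). Without Dcp2 replicate 2 and control replicate 1 the fitted log2 changes were -1.15 in the double knockdown (adjusted p = 0.30) and -2.83 ± 0.89 in the Dcp2 knockdown (adjusted p = 0.051). A second Dld probe set was at the floor of 4.9 units on all arrays.

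Pdhx, the structural subunit that anchors Dld to the core, had the largest fitted decrease in the double knockdown among the members. It read 107, 58.7 and 298 units in the double knockdown, 326, 440 and 508 in the Dcp1a knockdown, 155, 305 and 76.2 in the Dcp2 knockdown and 293, 241 and 487 in control eggs. Double knockdown replicates 1 and 2 lay below every control array, but replicate 3 lay within the control range. The log2 change against control was -1.40 ± 0.60 (adjusted p = 0.16 with limma) and that against the Dcp1a knockdown was -1.76 ± 0.60 (adjusted p = 0.078), in both cases above the threshold. In the second comparison the groups did not overlap, as for 27.1% of all tested probe sets in this direction. Without double knockdown replicate 3 the change against control was -2.04 and was called (adjusted p = 0.042), so this array decided the call. Leaving out control replicate 1 and Dcp2 replicate 2 gave -1.48 against control (adjusted p = 0.11), and -1.66 in the Dcp2 knockdown (adjusted p = 0.11).

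The plot of intensity by array sets these subunits beside the regulators and the carrier.

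**Figure D1:**
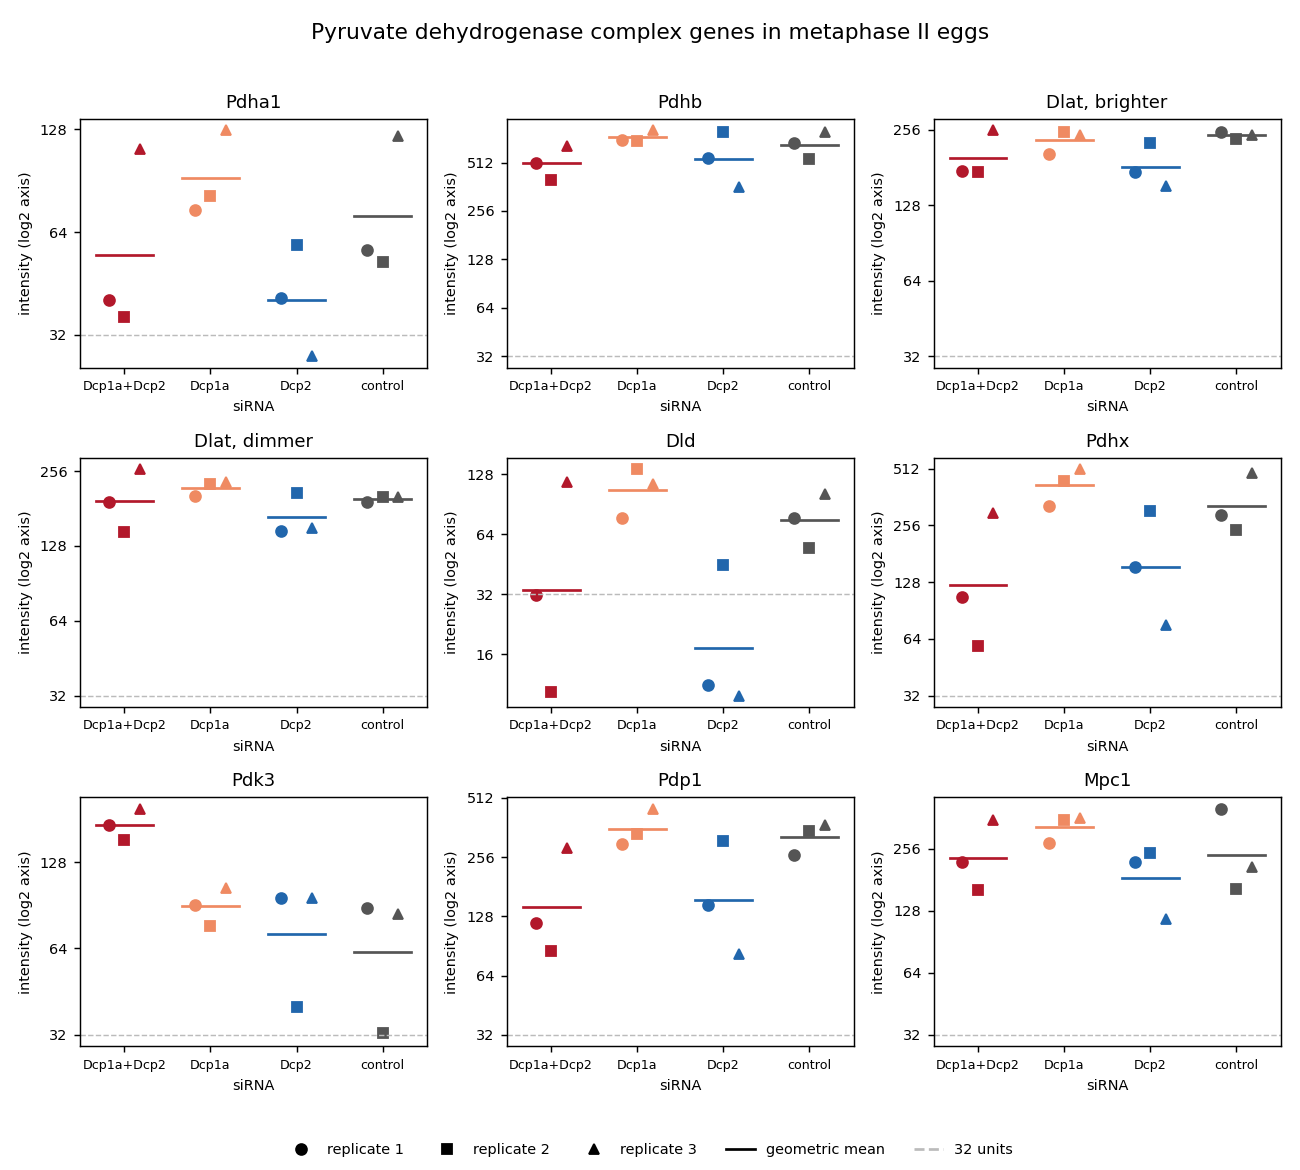
Intensity in GCRMA units on a log2 axis for the 9 tested member probe sets, with 1 point per array, a bar at each group's geometric mean and a dashed line at 32 units; groups run from the double knockdown on the left to control on the right. Pdk3 alone has all 3 double knockdown arrays (152 to 196 units) above the 9 others (32.4 to 104), while Dld and Pdhx spread most within the double and Dcp2 knockdowns.

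Among the regulators, Pdk3, a kinase that inactivates the complex, had the smallest adjusted p of all members in the double knockdown. It read 173, 152 and 196 units there, 90.7, 76.4 and 104 in the Dcp1a knockdown, 96.2, 39.9 and 96.2 in the Dcp2 knockdown and 88.7, 32.4 and 84.3 in control eggs. The 3 double knockdown arrays lay above all 9 other arrays, which 8.71% of all tested probe sets also showed, and the other 3 groups overlapped. The log2 change against control was 1.47 ± 0.42 (2.77-fold, 95% interval 0.55 to 2.39 on the log2 scale), and its adjusted p of 0.053 with limma lay just above the threshold. The differences were 0.95 ± 0.42 against the Dcp1a knockdown (adjusted p = 0.15) and 1.27 ± 0.42 against the Dcp2 knockdown (adjusted p = 0.13), measured on the same double knockdown arrays. The interaction was 0.75 ± 0.59 (adjusted p = 0.83). Which controls were kept moved the value: without control replicate 1 and Dcp2 replicate 2 the change was 1.73 and was called (adjusted p = 0.0085), with 0.88 in the Dcp2 knockdown (adjusted p = 0.12), and without control replicate 2, the dimmest array, it was 1.00 (adjusted p = 0.18).

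Pdp1 encodes the catalytic subunit of a phosphatase that reactivates the complex, and its array pattern was nearest to that of Pdhx. It read 119, 84.9 and 283 units in the double knockdown, 299, 335 and 451 in the Dcp1a knockdown, 146, 308 and 82.6 in the Dcp2 knockdown and 261, 349 and 373 in control eggs. Double knockdown replicates 1 and 2 and Dcp2 replicates 1 and 3 lay below all control arrays, whereas the other array of each group lay within the control range. The log2 changes were -1.19 ± 0.50 in the double knockdown (adjusted p = 0.15 with limma) and -1.07 ± 0.50 in the Dcp2 knockdown (adjusted p = 0.42). Without control replicate 1 and Dcp2 replicate 2 they were -1.35 (adjusted p = 0.058) and -1.72 (adjusted p = 0.044, called), and without double knockdown replicate 3 the first was -1.69 (adjusted p = 0.047, called). Pdk2, the kinase whose only probe set lay between 4.9 and 5.1 units on all arrays, and a second Pdp1 probe set at 4.9 units gave no measurement above the floor. A probe set at the floor does not show that its transcript is absent.

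Mpc1, a subunit of the carrier that brings pyruvate into the matrix, read 220, 161 and 351 units in the double knockdown, 273, 352 and 360 in the Dcp1a knockdown, 221, 245 and 117 in the Dcp2 knockdown and 399.5, 163 and 209 in control eggs. Each knockdown group overlapped control, and control replicate 1 was the highest of all 12 arrays. The log2 change in the double knockdown was -0.05 ± 0.40 (95% interval -0.92 to 0.82, adjusted p = 0.95 with limma), so these arrays could not tell changes within that interval from none. Without control replicate 1 and Dcp2 replicate 2 the fitted change was 0.32, with the sign turned, and that in the Dcp2 knockdown was -0.20 (adjusted p = 0.73).

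The plot of fitted changes shows how far the members' intervals reached in each knockdown.

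**Figure D2:**
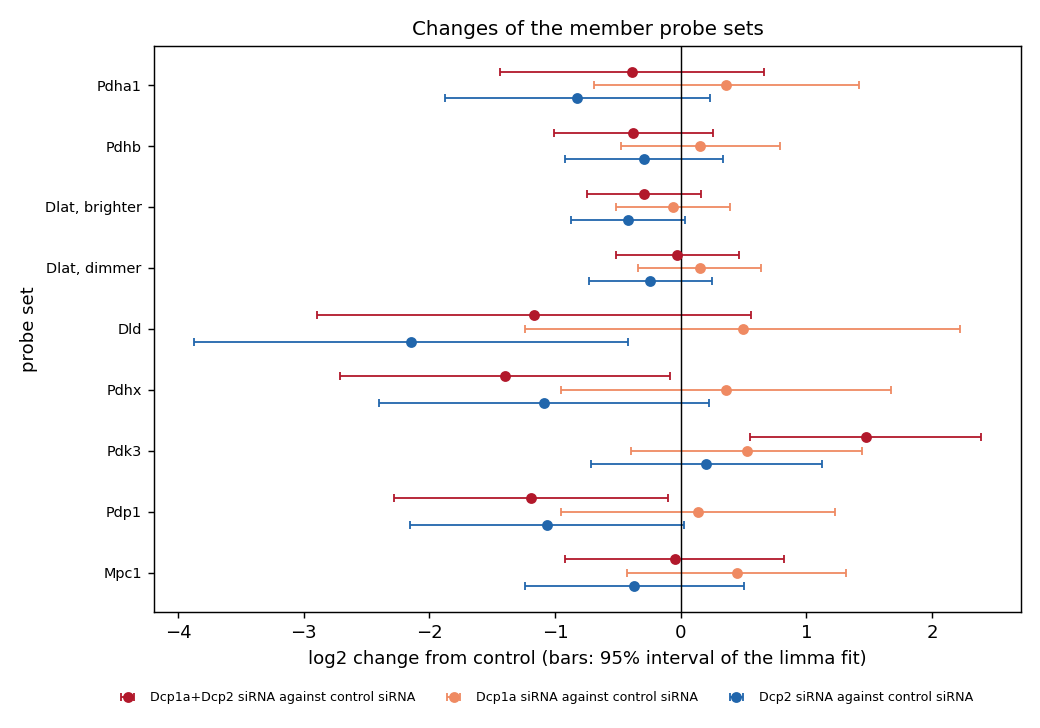
Log2 change from control (horizontal axis) of each tested member probe set in the double, Dcp1a and Dcp2 knockdowns, with points for the limma estimate and bars for its 95% interval, unadjusted for multiple testing. The double knockdown interval lies above 0 for Pdk3 (0.55 to 2.39) and below 0 for Pdhx and Pdp1, and no change passed the adjusted threshold.

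Taken over the 9 tested probe sets, the median log2 change was -0.38 in the double knockdown, 0.36 in the Dcp1a knockdown and -0.42 in the Dcp2 knockdown, each against the same control arrays. The medians over all tested probe sets were -0.02, 0.09 and -0.11. Fitted changes were below 0 for 8 of 9 in the double knockdown, for 1 of 9 in the Dcp1a knockdown and for 8 of 9 in the Dcp2 knockdown, and in the Dcp1a knockdown the 9 values lay between -0.06 and 0.52. The share of all tested probe sets below 0 was not counted. Most members moved together from array to array, so their signs are not independent. Between the double and the Dcp1a knockdown the member median was -0.53 and that of all probe sets -0.11, and between the double and the Dcp2 knockdown they were 0.21 and 0.06. The interaction had a member median of 0.06 and ran from -0.68 for Pdhx to 0.75 for Pdk3.

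The arrays of 1 group differed widely. With each probe set centred on its own mean over the 12 arrays, the members averaged -0.32, -0.82 and 0.60 on the log2 scale in double knockdown replicates 1, 2 and 3 and 0.26, 0.50 and 0.69 in the Dcp1a knockdown. They averaged -0.52, 0.02 and -0.99 in the Dcp2 knockdown and 0.26, -0.14 and 0.48 in control eggs. Replicates 1 and 2 of the double knockdown and 1 and 3 of the Dcp2 knockdown each had 8 of 9 probe sets below their own mean, and Pdk3 was the exception on each. Replicate 3 was the highest double knockdown array for 9 of 9 member probe sets (49.9% of all tested) and replicate 2 the highest Dcp2 array for 8 of 9 (48.8% of all), Pdk3 being the exception. The median log2 level of all tested probe sets moved the same way within both groups: it was 7.99, 7.94 and 8.15 in double knockdown replicates 1, 2 and 3 and 7.77, 8.01 and 7.67 in the Dcp2 knockdown. The 3′ Gapdh control probe set was lowest in the array of each of these groups with the highest median, with 4377, 4857 and 3314 units in the double knockdown and 3731, 1875 and 3434 in the Dcp2 knockdown, against 2854, 1227 and 1371 in control eggs. Its ratio to the middle Gapdh probe set, a sign of RNA quality, was 16.4 to 19.9 in the double, 17.9 to 20.2 in the Dcp1a and 19.2 to 22.7 in the Dcp2 knockdown, against 15.4, 28.1 and 25.8 in control eggs. The part of these array differences in the members' values was not tested.

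**Figure D3:**
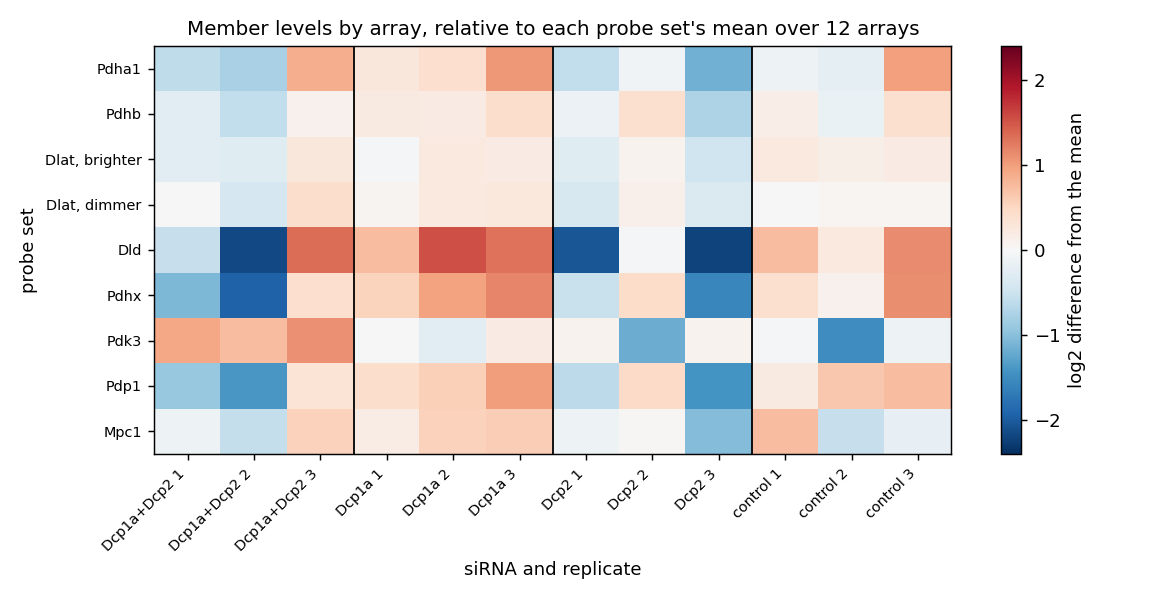
Log2 difference of each tested member probe set (rows, with the brighter and dimmer Dlat probe sets apart) from its own mean over the 12 arrays (columns, in groups from the double knockdown to control), red for above and blue for below. Double knockdown replicates 1 and 2 and Dcp2 replicates 1 and 3 are blue in most rows, and the row of Pdk3 is red in the double knockdown.

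Members also differed in how alike their array patterns were, measured as the root mean square difference of centred log2 values over the 12 arrays. Pdhb and Dlat were 0.22 apart and Pdhx and Pdp1 0.29 apart, while Pdk3 was 0.83 from its nearest member, Mpc1. Among the other 6997 genes, Gcnt2, a glycosyltransferase, and Arf4, a small GTPase of vesicle transport, had the patterns most like that of Pdha1, at 0.20 and 0.21 against a median of 0.73 over all genes. Both were dim, with 9.6 to 70.3 units over the arrays, so part of that likeness lies near the floor.

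Of 5 further regulators and isoforms 2 were tested. Pdk1, another kinase of the complex, read 3057, 2805 and 3591 units in the double knockdown, 1554, 1522 and 950 in the Dcp1a knockdown, 3433, 3195 and 2658 in the Dcp2 knockdown and 4303, 4047 and 4435 in control eggs. The Dcp1a knockdown arrays lay below the 9 others, and Pdk1 fell by 1.70 ± 0.21 there on the log2 scale (adjusted p = 0.029 with limma). The share of all tested probe sets with such a separation was not counted. In the double knockdown it was 1.26 ± 0.21 higher than in the Dcp1a knockdown (adjusted p = 0.0034) and -0.44 ± 0.21 from control (adjusted p = 0.20). The fitted change in the Dcp1a knockdown lay between -1.82 and -1.47 in 22 alternative analyses, but its call was lost in 13 of them. Among these were the variance from the compared arrays (adjusted p = 0.47), no filter on low values (0.21), the replicate block (0.11), and leaving out any Dcp1a array (0.056 to 0.14), control replicate 2 or 3 (0.14 each), Dcp2 replicate 1 (0.059) or double knockdown replicate 1 (0.065). Without control replicate 1 and Dcp2 replicate 2 it was -1.69 (adjusted p = 0.017). A second Pdk1 probe set had a log2 change of -1.61 ± 0.52 in the Dcp1a knockdown (adjusted p = 0.85 with limma). Its change was -1.58 ± 0.52 in the Dcp2 knockdown (adjusted p = 0.42) and -1.06 ± 0.52 in the double knockdown (adjusted p = 0.20). Between the double and the Dcp1a knockdown it differed by 0.55 ± 0.52 (adjusted p = 0.49). This probe set therefore did not set the Dcp1a knockdown apart from the Dcp2 knockdown. The other, Pdpr, a regulatory subunit of the phosphatase, differed from control by -0.01 ± 0.25 in the double knockdown.

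Of 7 genes that make or carry the complex's lipoate and thiamine cofactors, 2 were tested and 0 were called in the double knockdown against control. The smallest p was that of Lipt1, a lipoyltransferase, with a log2 change of 0.42 ± 0.24 (adjusted p = 0.27 with limma). Of 12 genes of related complexes that share the same architecture, 5 were tested and 0 were called. Bckdk, the kinase of the branched-chain 2-oxoacid dehydrogenase, came nearest, with 65.1, 78.8 and 61.9 units in the double knockdown and 48.6, 37.9 and 36 in control eggs. Its log2 change of 0.75 ± 0.22 had an adjusted p of 0.059 with limma, or 0.021 without control replicate 1 and Dcp2 replicate 2.

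Of 16 listed genes that supply pyruvate 7 were tested, and 0 were called against control in the double knockdown at the brightest probe set. Pkm, the pyruvate kinase that makes pyruvate in glycolysis, read 74.3, 66.1 and 73.5 units in the double knockdown, 38.3, 29 and 28 in the Dcp1a knockdown, 39.9, 37.4 and 24.1 in the Dcp2 knockdown and 48.7, 28.6 and 47.4 in control eggs. Its double knockdown arrays lay above the 9 others, as for 8.71% of all tested probe sets. On the log2 scale Pkm was 1.18 ± 0.26 higher in the double than in the Dcp1a knockdown (adjusted p = 0.014 with limma), where 2 of 3 arrays were under 32 units, and 1.11 ± 0.26 higher than in the Dcp2 knockdown (adjusted p = 0.027). Against control the log2 change was 0.82 ± 0.26 (adjusted p = 0.078, or 0.037 without control replicate 1 and Dcp2 replicate 2). The call against the Dcp1a knockdown was lost without Dcp1a replicate 2 or 3 or double knockdown replicate 1 (adjusted p 0.055 to 0.066). Without the filter on low values that adjusted p was 0.071. Me2, a mitochondrial malic enzyme that forms pyruvate from malate, had a log2 change of -0.04 ± 0.32 at its brighter probe set and rose by 1.30 ± 0.23 at another (adjusted p = 0.0058), so its probe sets differed.

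The citric acid cycle, which receives the complex's acetyl-CoA, had 13 of 16 listed genes tested. In the double knockdown 3 rose and 0 fell against control at the brightest probe set, with a median log2 change of -0.28 over the 13, against -0.02 over all tested probe sets. Idh3g, a regulatory subunit of the NAD-dependent isocitrate dehydrogenase, read 197, 316 and 145 units in the double knockdown, 45.2, 23.3 and 30.4 in the Dcp1a knockdown, 55.4, 29.6 and 60.3 in the Dcp2 knockdown and 41.4, 29 and 32.8 in control eggs. It rose by 2.61 ± 0.36 on the log2 scale (adjusted p = 0.0016 with limma), and by 2.75 without control replicate 1 and Dcp2 replicate 2 (adjusted p = 0.0015). All double knockdown arrays lay above the other 9 arrays, as for 8.71% of all tested probe sets. Mdh2, the mitochondrial malate dehydrogenase, read 1596, 1744 and 1839 units in the double knockdown, 97.5, 89.3 and 67.2 in the Dcp1a knockdown, 153, 96.1 and 58.1 in the Dcp2 knockdown and 66.2, 88.4 and 795 in control eggs. It rose by 3.37 ± 0.75 (adjusted p = 0.019), and control replicate 3 lay far above the other control arrays.

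Without control replicate 3 the change of Mdh2 was 4.49, and its call was lost without control replicate 2 (2.91, adjusted p = 0.089) and without double knockdown replicate 1 or 2 (adjusted p = 0.057 and 0.069). The call was also lost without the filter on low values (adjusted p = 0.15) and with the variance from the compared arrays (0.12), and it held at 2.70 without control replicate 1 and Dcp2 replicate 2 (0.031). A second Mdh2 probe set rose by 2.19 ± 0.55 (adjusted p = 0.030). Sdhb, the iron-sulphur subunit of succinate dehydrogenase, read 68.8, 56.3 and 47.8 units in the double knockdown, 11.8, 11.8 and 17.4 in the Dcp1a knockdown, 19.1, 14.2 and 13.5 in the Dcp2 knockdown and 11.8, 14.9 and 26 in control eggs. Its fitted log2 change from control was 1.78 ± 0.30 (adjusted p = 0.0046 with limma, or 0.0078 without control replicate 1 and Dcp2 replicate 2). With values under 32 units counted as 32, Sdhb was at least 1.78-fold higher than in control eggs, a fold that these p-values did not test. Only the double knockdown arrays exceeded 32 units, so Sdhb passed the filter through that group alone, which favoured its call. With the variance from the compared arrays the adjusted p was 0.053. Sdha, the flavoprotein subunit of the same enzyme, differed by -0.65 ± 0.29 (adjusted p = 0.17), and Cs, the citrate synthase that condenses acetyl-CoA with oxaloacetate, by -0.33 ± 0.19 (adjusted p = 0.27).

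**Figure D4:**
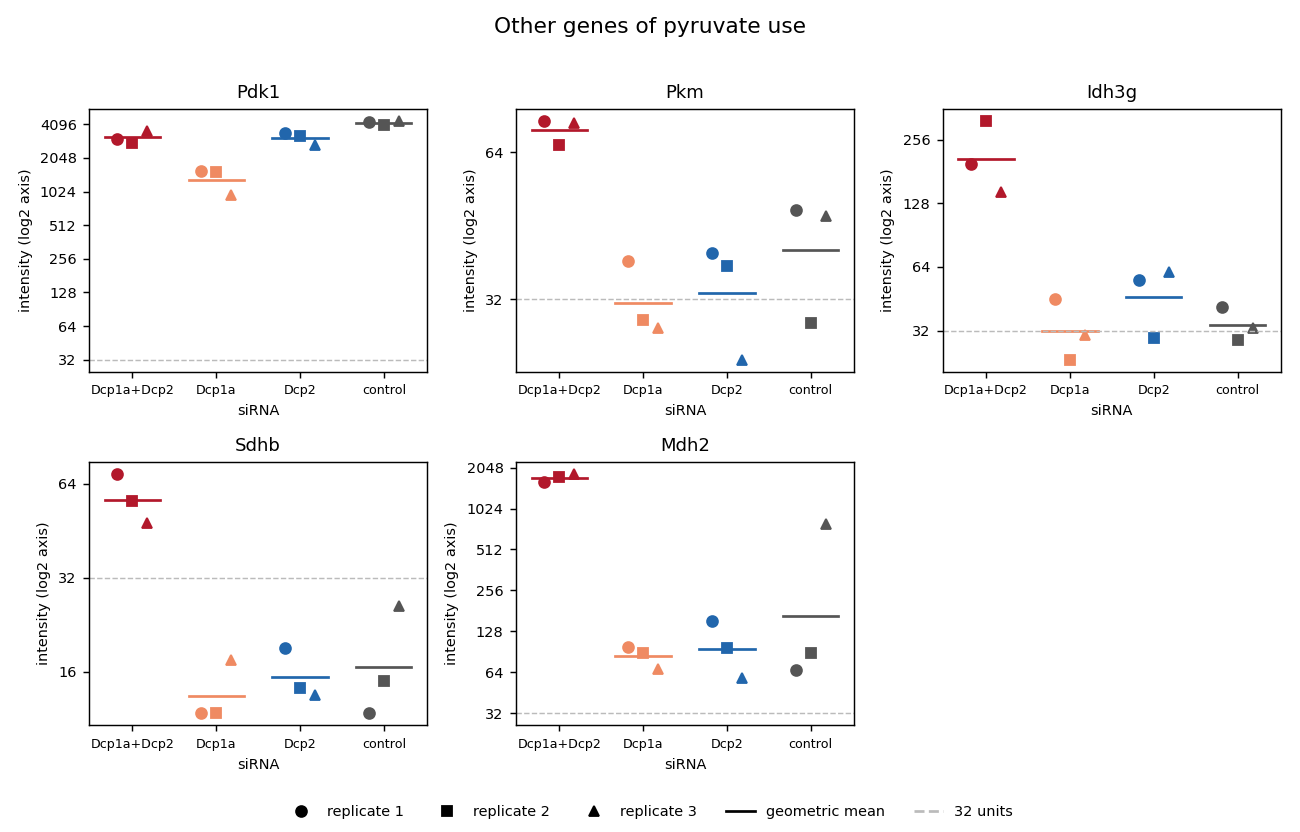
Intensity in GCRMA units on a log2 axis for 5 genes of pyruvate use outside the complex, with 1 point per array, a bar at each group's geometric mean and a dashed line at 32 units; groups run from the double knockdown to control. Idh3g, Sdhb and Mdh2 are highest in the double knockdown, and Pdk1 is lowest in the Dcp1a knockdown (950 to 1554 units).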

How the data were processed

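Per the labels' protocols, RNA of 30 eggs was amplified with a small-sample labelling assay, and each sample had 1 array. The authors made the deposited intensity values with GCRMA, per the submitters' processing notes. This method models background from the probe sequence, scales arrays to each other and combines the probes of a set. The sources used here do not give its version. Of the intensities, 55.6% did not exceed 5 units, and the floor therefore sets the fold of a dim probe set. The number of arrays limits the precision.

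From these values log2 intensities were taken. The 64 control probe sets were left out of 45101, and probe sets with log2 above 5 (32 units) on at least 3 of 12 arrays were tested. Names came from the platform annotation, where 34945 probe sets had 1 symbol, 932 several and 9160 none, and probe sets with several symbols were not used. A RefSeq table (GRCm38.p6) matched 34741 of these 34945 probe sets by gene and changed 0 symbols. Promoters came from RefSeq on that build and were found for 9 of the 10 members.

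Group means over all 12 arrays were compared in R 4.3.3 with limma 3.58.1, by lmFit followed by eBayes (8 residual and 2.97 prior degrees of freedom), two-sided, with Benjamini-Hochberg adjustment over 11593 probe sets. The procedure was tested on simulated data with independent normal noise and no floor, with 4 false calls. That count does not cover differences shared across an array. The folds of Dld and Sdhb were taken with log2 values under 5 set to 5, which allows for the floor only and gives no confidence limit. The members, lists and alternatives were chosen with earlier results of these data known. All probe sets of the members were named. From each other list the named genes were those called in the double knockdown against control, at their brightest tested probe set, up to 4 by smallest p, or the smallest p where none was called. Pdpr, Sdha, Cs and the second probe sets were named after their values were seen. The 2 genes most like Pdha1 in pattern were named because no member was called.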

Additional observations from a re-analysis of the deposited data

Results flagged for a closer look

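The change with both siRNAs differed from the sum of the single changes for 4 genes of pyruvate use, as tested by limma's interaction term adjusted over all probe sets. None of them is a subunit of the complex. Of all tested probe sets 3.93% were called for the interaction. Only the members and the genes named from the lists were looked at here. Idh3g, Sdhb and Mdh2 had been named for their calls in the double knockdown against control. The interaction used the same double knockdown arrays, so that choice favoured a positive departure. Pdk1 departed from additivity by 1.73 ± 0.30 on the log2 scale (adjusted p = 0.010), Sdhb by 2.19 ± 0.42 (adjusted p = 0.015), Mdh2 by 5.18 ± 1.05 (adjusted p = 0.020) and Idh3g by 2.27 ± 0.51 (adjusted p = 0.032), with 3 arrays a group. A positive value means that the level in the double knockdown was above that given by adding the single changes. Pdk1 was not called in the double knockdown against control (-0.44 ± 0.21, adjusted p = 0.20). A second Mdh2 probe set departed by 4.18 ± 0.77 (adjusted p = 0.012). A second Pdk1 probe set departed by 2.12 ± 0.73 and was not called (adjusted p = 0.20). The calls were lost in 13 of 21 alternative analyses for Idh3g, 6 of 21 for Mdh2, 3 of 20 for Sdhb and 1 of 21 for Pdk1. Without control replicate 1 and Dcp2 replicate 2 the values were 1.75 for Pdk1 (adjusted p = 0.024), 2.38 for Sdhb (0.017), 5.86 for Mdh2 (0.019) and 1.81 for Idh3g (0.070, not called). The highest adjusted p was 0.054 for Pdk1, 0.11 for Sdhb, 0.18 for Mdh2 and 0.21 for Idh3g, each without the filter on low values. Sdhb was under 32 units outside the double knockdown and passed the filter only through that group. With values floored at 32 its departure was 0.83 (adjusted p = 0.062).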

How the results depend on the processing

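Among the members the count of called probe sets was 0 in the analysis reported. With the replicate block it became 1 in the double knockdown against control (Pdk3), where 7.06% of all tested probe sets were called. It also became 1 in the double against the Dcp2 knockdown (Pdk3, 5.3% of all). In the double against the Dcp1a knockdown it became 1 with median centring (Pdhx, adjusted p = 0.049 with limma, 13.7% of all called). There it was also 1 with the variance taken from the compared arrays (Pdk3, 24% of all). With array quality weights, an alternative chosen after seeing the data, it was 3, 8 and 1 in the double knockdown against control, the Dcp1a knockdown and the Dcp2 knockdown; these weights ran from 0.23 to 7.98, and they called 34.8%, 61.1% and 22.1% of all tested probe sets in these comparisons. Leaving out control replicate 1 and Dcp2 replicate 2 together was also chosen after seeing the data. It gave 1 in the double knockdown against control (Pdk3, 27.7% of all tested probe sets called). It gave 1 in the Dcp2 knockdown against control (Pdp1, 20.9% of all, against 0.0173% in the analysis reported). In the double against the Dcp1a knockdown it gave 1 (Pdp1, 23% of all). Leaving out single arrays gave 0 to 2 in the double knockdown against control and 0 to 3 in the double against the Dcp1a knockdown. In the latter, Pdhx and Pdp1 were called without Dcp2 replicate 2 (18.6% of all called), and Dld too without double knockdown replicate 3 (19.8%). In the double against the Dcp2 knockdown it gave 0 to 1 (Pdk3 without control replicate 2, 6.85% of all). In the double knockdown against control, Pdk3 was the call without control replicate 1 (21.1% of all called), control replicate 3 (9.51%) or Dcp2 replicate 2 (11.1%). Pdhx and Pdp1 were the calls there without double knockdown replicate 3 (10.2%). The Dcp1a knockdown against control and the interaction had 0 throughout. The cause of these shifts was not tested.

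Same-numbered arrays deviated together by correlations of -0.69 to 0.39. Differently numbered arrays were not compared in this way, so whether the numbers pair the samples was not settled. Under the block the adjusted p of Pdk3 in the double knockdown against control was 0.017 with limma. Over all alternatives it ran from 0.0076 to 0.29, with log2 changes of 1.00 to 1.73. No fitted member change that turned sign had passed the threshold. With median centring and quantile normalization Dlat in the double against the Dcp2 knockdown was -0.082 and -0.079, and the interaction of Pdha1 was -0.022 and -0.062 (-0.025 with weights). With values floored the interaction of Dld was -0.034. Without the 2 arrays that stood apart, Mpc1 in the double knockdown was 0.32, Pdp1 in the Dcp1a knockdown -0.018, Pdhb, Pdhx and Pdp1 in the double against the Dcp2 knockdown 0.19, 0.18 and 0.37, and the interactions of Pdhb and Pdp1 0.020 and 0.39. With weights Mpc1 in the double knockdown was 0.033 and Pdp1 in the Dcp1a knockdown -0.013.

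Without single arrays, changes against control ranged in the double knockdown from -0.91 to 0.002 for Pdha1 and -0.35 to 0.32 for Mpc1, in the Dcp1a knockdown from -0.12 to 0.028 for Dlat and -0.033 to 0.26 for Pdp1, and in the Dcp2 knockdown from -0.27 to 0.63 for Pdk3 and -0.64 to 5e-04 for Mpc1. In the double against the Dcp2 knockdown they ranged from -0.087 to 0.73 for Pdha1, -0.37 to 0.19 for Pdhb, -0.054 to 0.29 for Dlat, -0.95 to 0.22 for Pdhx, -0.62 to 0.37 for Pdp1 and -0.0064 to 0.59 for Mpc1. Interactions ranged from -0.45 to 0.37 for Pdha1, -0.53 to 0.036 for Pdhb, -0.41 to 1.34 for Dld, -0.76 to 0.23 for Pdp1 and -0.49 to 0.15 for Mpc1.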
